A study of Saccharomyces cerevisiae with 16 samples.

Results

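The mRNAs of 10 cell wall proteins of *S. cerevisiae* were followed in WT and *lsm1∆* cells before and during treatment with hydroxyurea (HU). The genes were chosen by name, with earlier results of these data known. They are *CWP1*, *CWP2*, *CCW12*, *TIR1*, *SED1*, *UTH1*, *SUN4*, *PIR1*, *PIR3* and *HSP150*, 10 of the 7126 genes in each table. The yeast wall is a layer of glucan fibres covered by heavily mannosylated proteins, and its proteins are replaced as the cell cycle, growth phase and stress demand. GPI-type mannoproteins such as Cwp1, Cwp2, Ccw12, Tir1 and Sed1 reach the cell surface on a lipid anchor and are then transferred to glucan. PIR proteins (proteins with internal repeats) such as Pir1, Pir3 and Hsp150 are bound to glucan directly. Uth1 and Sun4 belong to the SUN family, whose members carry a related C-terminal region and act in wall remodelling and septation.

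WT was the BY4741 strain, and *lsm1∆* carried a deletion of *LSM1* in the same background. Lsm1 is a subunit of the ring that binds the 3' end of mRNAs shortened by deadenylation, before decapping, and is found in P-bodies. Both strains were grown in YPD to mid-logarithmic phase and sampled untreated (0 h) and after 1, 2 and 4 h in 200 mM HU, which inhibits ribonucleotide reductase and slows DNA replication. Each of the 8 conditions had 2 replicates, 16 libraries in all. The replicates are called technical in the study's methods, so the p-values may measure only the spread between preparations and not between cultures. How many clones stand behind the *lsm1∆* strain is not given in the sources used here.

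*LSM1* was at 111 to 181 FPKM in each WT library, and *lsm1∆* libraries had at most 0.761 FPKM. Transcripts of **a** cells (*MFA1*, *MFA2* and *STE2*) were abundant in every library, and *MF(ALPHA)1* was at most 3.40 FPKM, as in a strain of mating type **a**. The other alpha-factor gene, *MF(ALPHA)2*, was at 10.2 to 21.3 FPKM in WT and 11.3 to 21.2 FPKM in *lsm1∆*. Relative depth, from the size of single-read steps in low genes, lay between 0.897 and 1.09 of the average. Replicates correlated with Pearson's r of 0.949 to 0.963 over all genes. The summed FPKM of a library was 1901306 to 2680705, and the 10 genes made up 1.14 to 1.71% of it.

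FPKM divides the fragments of a gene by its length and by the sequencing depth, so levels can be compared between genes. Genes that reached 1 FPKM in 2 or more libraries were tested, and each of the 10 was above 1 FPKM in all 16. *CCW12* was the most abundant, with a lowest, median and highest level of 14289, 18790.3 and 26021 FPKM, and ranked between 6 and 15 among all genes. *CWP2* followed at 3681, 8795 and 11720.0 FPKM. *SED1*, *UTH1* and *HSP150* had medians of 1477, 931 and 802 FPKM. *CWP1*, *SUN4* and *TIR1* were lower, with medians of 263, 137 and 135 FPKM. *PIR1* ranged most widely, from 33.8 to 806 FPKM, a ratio of 23.9 between its highest and lowest library. *PIR3* was the least abundant, at 2.84 to 34.6 FPKM. The half-width of the Cufflinks 95% interval was at most 1.04% of the value for *CCW12*, 10.8% for *TIR1* and 37.1% for *PIR3*, so *PIR3* was measured least precisely.

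**Figure D1:**
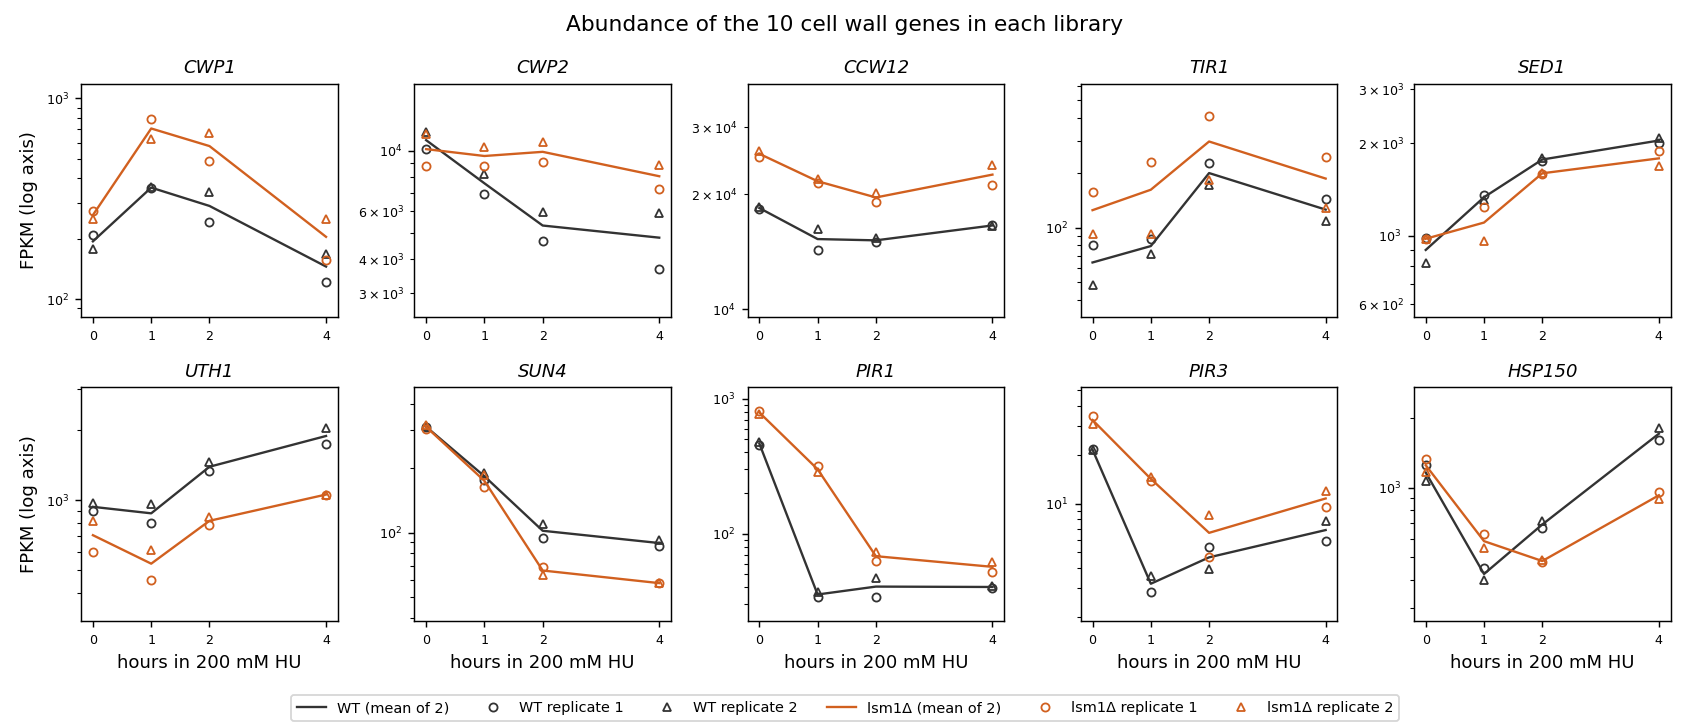
FPKM (log axis) of the 10 genes against hours in 200 mM HU. Circles are replicate 1 and triangles replicate 2, lines join the means of 2 replicates, WT is dark and *lsm1∆* is orange; *PIR1* in WT drops from 449.8 and 480.2 to 33.9 and 36.9 FPKM at 1 h while *lsm1∆* keeps 314 and 285, and *UTH1* of *lsm1∆* lies below WT at every time.

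Log2 ratios were taken from a single limma fit of log2(FPKM + 1) over the 6977 genes that passed the filter, and genes with a Benjamini–Hochberg adjusted p-value under 0.05 within a comparison are termed called. In WT, HU raised 2 of the 10 mRNAs and lowered 5 at 1 h, against 36% of all genes called higher and 8.36% called lower. At 2 h, 3 were raised and 6 lowered (31.1% and 11.9% of all genes). At 4 h, 3 were raised and 4 lowered (22% and 26%). In *lsm1∆*, 1 was raised and 5 were lowered at 1 h, with 25% of all genes higher and 9.4% lower. The counts were 2 and 5 at 2 h (38.6% and 10.1% of all genes) and again 2 and 5 at 4 h (43.6% and 14.7%). The median log2 ratio of the 10 genes to untreated cells was −0.40, −0.51 and −0.29 in WT and −0.32, −0.20 and −0.36 in *lsm1∆*, where that of all genes was 0.22, 0.16 and −0.03 in WT and 0.14, 0.23 and 0.27 in *lsm1∆*. With each library centred on its median, 6, 6 and 4 of the 10 were lowered and 0, 2 and 3 raised in WT, where *CWP1* and *SED1* had unadjusted limma p-values of 0.0415 and 0.0175 for a rise at 1 h. The centred shares of all genes in WT were 17.6%, 20.5% and 24.7% lower and 14.6%, 18.3% and 23.9% higher. In *lsm1∆* the centred counts were 6, 5 and 5 lowered and 1, 2 and 1 raised, against 15.5%, 20.9% and 27.5% of all genes lower and 13.9%, 18.9% and 23.1% higher. The 3 HU comparisons of a strain share their untreated libraries.

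Between strains, 2 of the 10 mRNAs were higher and 0 lower in untreated *lsm1∆* cells, with 22.2% of all genes called higher and 6.32% lower. For the members not called lower, 1 had an unadjusted p-value under 0.05 with a negative ratio, *UTH1*. At 1 h of HU, 5 were higher and 1 lower (23.2% and 13.8% of all genes). At 2 h the counts were 4 and 3 (32% and 7.75%), and at 4 h they were 3 and 3 (49.8% and 6.29%). The all-gene median of the *lsm1∆*:WT ratio moved from 0.13 untreated to 0.04, 0.17 and 0.37 at 1, 2 and 4 h on the deposited scale. With each library centred on its median, 2 and 0, 5 and 1, 3 and 3, and 0 and 4 of the 10 genes were called higher and lower at the 4 times. The centred shares of all genes were 16.3% higher and 9.42% lower untreated, 23.2% and 13.9% at 1 h, 20.6% and 15.8% at 2 h, and 21.9% and 23.5% at 4 h. No member was therefore called higher in *lsm1∆* at 4 h once the libraries were centred (0 positive ratios had an unadjusted p-value under 0.05), and *SED1*, *UTH1*, *SUN4* and *HSP150* were called lower.

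**Figure D2:**
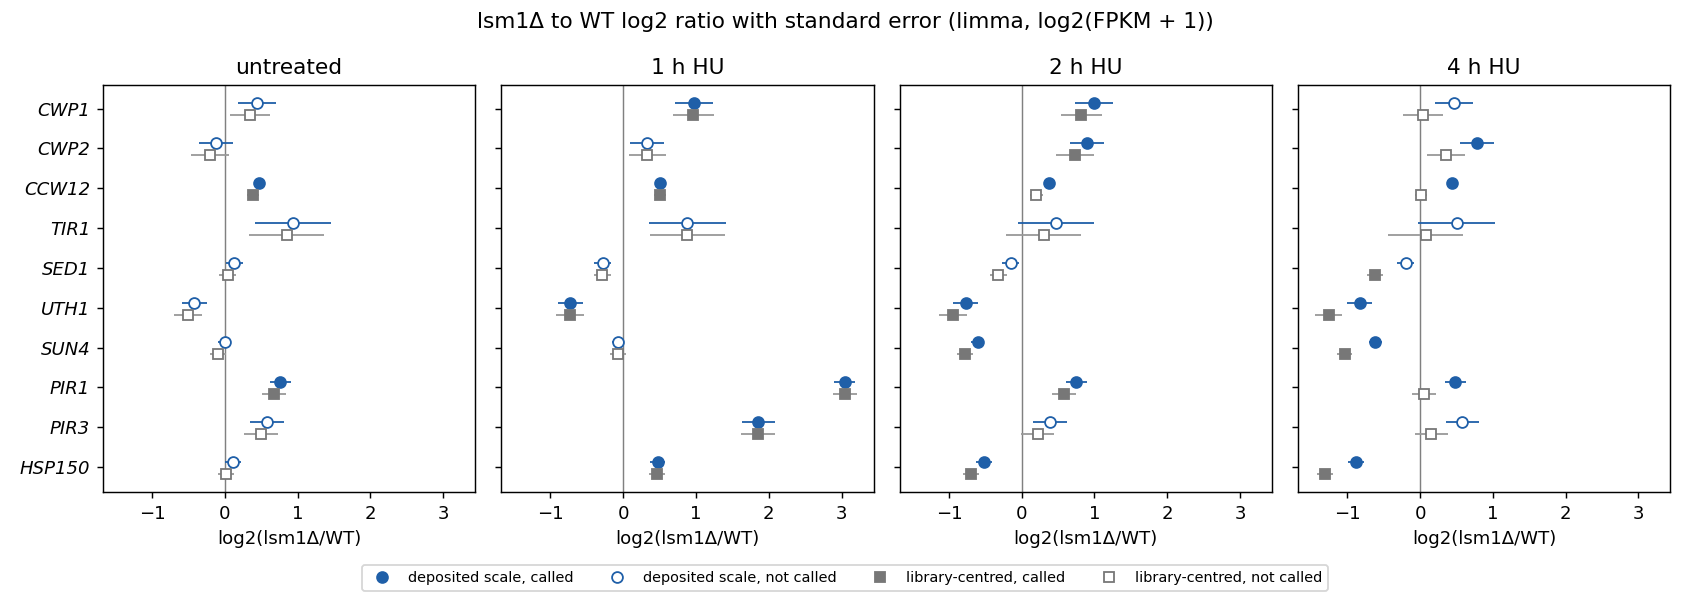
*lsm1∆*:WT log2 ratio of each gene with its standard error at the 4 times, from limma on log2(FPKM + 1). Circles are on the deposited scale and squares after centring each library on its median, filled where called; *PIR1* at 1 h stands at 3.05, and *UTH1*, *SUN4* and *HSP150* lie left of 0 at 2 and 4 h on both scales.

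The PIR group held the largest changes. *PIR1* (YKL164C, chromosome XI, 141794–142819, minus strand, sacCer3) encodes a glucan-bound O-mannosylated protein whose mRNA is known to peak around the M/G1 transition. In WT it was at 449.8 and 480.2 FPKM untreated, 33.9 and 36.9 at 1 h, 33.8 and 47.2 at 2 h, and 39.5 and 41.0 at 4 h. *lsm1∆* had 806 and 772 FPKM untreated, 314 and 285 at 1 h, 62.8 and 73.3 at 2 h, and 52.4 and 61.1 at 4 h. The strains did not overlap at any time, and in *lsm1∆* the levels at 1 h were still far above those at 2 and 4 h. At 1 h the log2 ratio to untreated cells was −3.68 ± 0.14 (SE) in WT and −1.40 ± 0.14 in *lsm1∆*. The strains differed in this change by 2.28 ± 0.20 (limma adjusted p = 0.00424). Of all genes, 0.287% had a called difference in this direction at 1 h and 0.215% in the other, and *PIR1* was the only one of the 10 members called. *HSP150* and *PIR3* had unadjusted p-values of 0.0411 and 0.00302 in this direction and *SED1* of 0.0332 in the other. *PIR1* had *lsm1∆*:WT log2 ratios of 0.76, 3.05, 0.75 and 0.48 along the time course, called at each time (limma adjusted p = 0.00374, 5.2e-06, 0.00216 and 0.0158), and the mean was 8.46 times that of WT at 1 h and 1.41 times at 4 h. At 4 h the call was lost without WT replicate 1 or *lsm1∆* replicate 2 of that time (0.37 to 0.59 over the libraries left out in turn), and the centred ratio was 0.06. From untreated to 4 h the fall was −3.50 in WT and −3.78 in *lsm1∆*, and these falls were not called different (−0.28 ± 0.20, limma adjusted p = 0.332).

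*PIR3* (YKL163W, XI, 144401–145378, plus strand) is the neighbour of *PIR1*, read in the opposite direction from a start 1581 bp away, and encodes a close relative. WT was listed at 21.5 and 21.4 FPKM untreated, 2.84 and 3.58 at 1 h, 5.38 and 3.95 at 2 h, and 5.92 and 7.82 at 4 h. The *lsm1∆* values were 34.6 and 30.8, 13.8 and 14.6, 4.69 and 8.52, and 9.57 and 11.9 FPKM at the same times. It was at 3.99 to 19.5% of the level of *PIR1*, and both were far below untreated cells at each HU time. From 1 to 4 h in WT the mean of *PIR3* went from 3.21 to 6.87 FPKM and that of *PIR1* from 35.4 to 40.2 FPKM. Its *lsm1∆*:WT log2 ratio was called at 1 h only (1.86 ± 0.23, limma adjusted p = 0.000257). These values are uncertain, because the reads were short and part of the coding sequence is the same in both genes. Of the 929 windows of 50 bases in *PIR3*, 60 occur in *PIR1* as well. The longest shared run covers bases 39 to 119 of both coding sequences and is shown because reads from it cannot be placed in either gene:
PIR1 and PIR3: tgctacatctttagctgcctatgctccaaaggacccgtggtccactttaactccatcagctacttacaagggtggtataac

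The FPKM of both genes were recomputed, after the data had been seen, as if reads from the shared windows had been divided evenly between the 2 genes. *PIR3* would then stand at 6.79 and 5.58 FPKM in untreated WT, 1.77 and 2.43 at 1 h, and 4.76 and 6.68 at 4 h, and in *lsm1∆* at 7.97 and 5.27 untreated, 3.45 and 5.27 at 1 h, and 8.09 and 10.2 at 4 h. Under that assumption the *lsm1∆*:WT ratio of *PIR3* at 1 h was 0.78 (limma adjusted p = 0.112) and the changes at 2 and 4 h of HU in WT were −0.73 and −0.11, none of them called. In *lsm1∆* the changes at 1 and 2 h were −0.51 and −0.53 and the change at 4 h was 0.43, also without a call, whereas the fall in WT at 1 h, −1.22, was still called (limma adjusted p = 0.0183). *PIR1* kept each of its calls, with a ratio of 3.05 at 1 h. The deposited values of *PIR3* thus cannot be read apart from those of *PIR1*.

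*HSP150* (YJL159W, X, 120449–121690, plus strand) encodes a secreted PIR protein that is known to be induced by heat shock and nutrient limitation. In WT it was at 1251 and 1072 FPKM untreated, 449 and 397 at 1 h, 671 and 713 at 2 h, and 1612 and 1806 at 4 h. Levels in *lsm1∆* were 1330.2 and 1168 FPKM untreated, 627 and 546 at 1 h, 475 and 487 at 2 h, and 959 and 891 at 4 h. WT therefore went through a trough at 1 h and ended above its untreated level, and *lsm1∆* had its lowest level at 2 h and stayed below both untreated libraries at 4 h. The change at 4 h was 0.56 ± 0.11 in WT and −0.43 ± 0.11 in *lsm1∆*, and the difference between them was called (−0.99 ± 0.16, limma adjusted p = 0.00188). The *lsm1∆*:WT ratio changed sign along the time course, from 0.11 untreated and 0.47 at 1 h to −0.52 at 2 h and −0.88 at 4 h, with the last 3 called (limma adjusted p = 0.0078, 0.00358 and 7.2e-05). The call at 1 h was lost without WT replicate 2 or *lsm1∆* replicate 1 (0.37 to 0.57), and the fall in *lsm1∆* at 4 h was lost without untreated *lsm1∆* replicate 1 (−0.34). Of the windows of *HSP150*, 16 of 1193 also occur in its neighbour *CIS3*, 574 bp away, which encodes another PIR protein. *CIS3* had WT means of 690.2, 833, 750.5 and 652 FPKM, with 929.7, 938, 1138 and 964 for *lsm1∆*, and was not called lower in any comparison.

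The SUN family pair stood on opposite sides of its untreated levels by 4 h of HU. *UTH1* (YKR042W, XI, 519527–520624, plus strand) encodes a wall and mitochondria-associated protein known for its links to oxidative stress and ageing. In WT it was at 899 and 977 FPKM untreated, 796 and 963 at 1 h, 1335 and 1456 at 2 h, and 1746 and 2039.9 at 4 h. In *lsm1∆* it was at 599 and 818 FPKM untreated, 454 and 615 at 1 h, 787 and 848 at 2 h, and 1059.9 and 1060.0 at 4 h. All *lsm1∆* libraries lay below both WT libraries of the same time. The *lsm1∆*:WT log2 ratio was −0.42 ± 0.17 untreated, which was not called (limma adjusted p = 0.0982), and −0.73, −0.77 and −0.83 at 1, 2 and 4 h, which were called (limma adjusted p = 0.00867, 0.0053 and 0.00219). Leaving out WT replicate 2 or *lsm1∆* replicate 1 at 1 h ended the call at that time (−0.95 to −0.51), and leaving out *lsm1∆* replicate 2 of the untreated cells gave a called ratio of −0.64. After centring, the ratios at 1, 2 and 4 h were −0.73, −0.94 and −1.26. At 1 h of HU the change of *UTH1* was −0.10 in WT and −0.41 in *lsm1∆*, neither called (limma adjusted p = 0.677 and 0.0988). After centring the fall in *lsm1∆* at 1 h was called (−0.56, limma adjusted p = 0.0478). *UTH1* then rose in WT, by 0.57 ± 0.17 at 2 h and 1.01 ± 0.17 at 4 h. In *lsm1∆* its change at 2 h was 0.22, not called, and it was called higher at 4 h (0.60 ± 0.17). The call at 2 h in WT was lost without any 1 of the 4 libraries compared (0.51 to 0.63) and after centring (0.39). The call at 4 h in *lsm1∆* was lost without untreated replicate 1 or either replicate at 4 h (0.37 to 0.82) and after centring (0.29). The rise at 4 h was not called different between the strains (−0.41 ± 0.24, limma adjusted p = 0.238).

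*SUN4* (YNL066W, XIV, 501515–502777, plus strand) encodes a wall protein with a role in septation, the separation of mother and daughter cells. WT levels were 310.2 and 313 FPKM untreated, 176 and 191 at 1 h, 94.7 and 109 at 2 h, and 86.3 and 92.4 at 4 h. For *lsm1∆* the values were 306 and 317, 164 and 185, 69.4 and 63.7, and 58.2 and 58.0 FPKM. The strains overlapped untreated and at 1 h and were apart at 2 and 4 h, where *lsm1∆* was lower. The change from untreated cells was −0.76, −1.61 and −1.79 in WT and −0.84, −2.21 and −2.40 in *lsm1∆*, each called with a standard error of 0.09. The *lsm1∆*:WT ratio was −0.00 and −0.07 at 0 and 1 h and −0.61 at both 2 and 4 h (limma adjusted p = 0.000391 and 0.000179). The difference in the change was −0.60 ± 0.12 at 2 h (limma adjusted p = 0.0481) and −0.61 ± 0.12 at 4 h (limma adjusted p = 0.00539). The former is at the edge of the threshold: it was lost in 14 of the 16 fits that left out a library (−0.71 to −0.50) and after centring (adjusted p = 0.067). At 2 h 1.06% of all genes had a called difference upwards and 0.287% downwards, and *SUN4* was the only member in either direction, with *CWP2* upwards and *HSP150* downwards at unadjusted p-values of 0.0116 and 0.00235. At 4 h these shares were 26.9% and 3.55%, and 2 of the 10 members, *SUN4* and *HSP150*, were called downwards and 0 upwards, where *CWP2* had an unadjusted p-value of 0.0219. After centring, the shares of all genes called upwards and downwards were 0.487% and 0.172% at 1 h, 0.487% and 0.473% at 2 h, and 5.19% and 9.03% at 4 h. The members called were then *PIR1* upwards at 1 h and *SED1*, *SUN4* and *HSP150* downwards at 4 h.

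**Figure D3:**
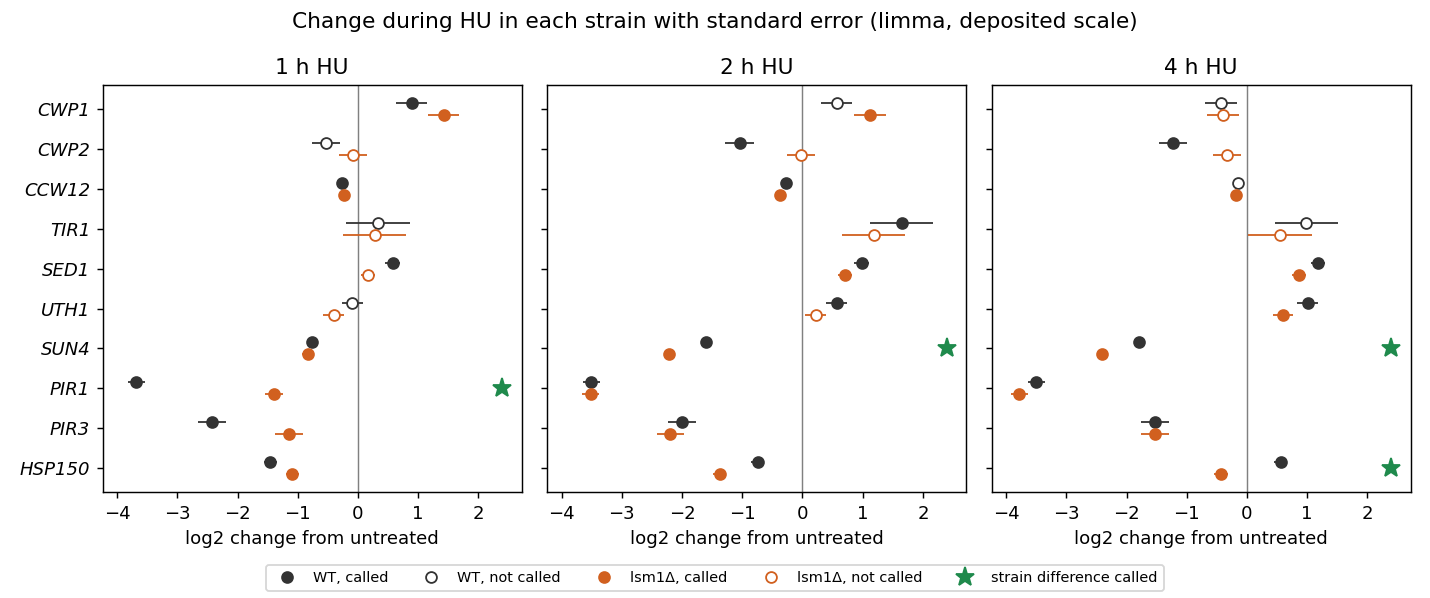
Log2 change from untreated cells at 1, 2 and 4 h of HU with its standard error, WT dark and *lsm1∆* orange, filled where called. A star at the right marks a called difference between the strains, which *PIR1* has at 1 h (2.28), *SUN4* at 2 and 4 h (−0.60 and −0.61) and *HSP150* at 4 h (−0.99).

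The other SUN genes were compared with this pair. *NCA3*, a gene named for its part in mitochondrial ATP synthase expression, rose in WT from a mean of 13.2 FPKM untreated to 40.0, 86.4 and 170.5 FPKM, and in *lsm1∆* from 14.9 to 21.5, 32.7 and 54.8 FPKM. In HU the *lsm1∆*:WT ratios of *NCA3* were −0.89, −1.37 and −1.62, and the difference in its change at 4 h was called (−1.74 ± 0.34, limma adjusted p = 0.00472). *SIM1* had *lsm1∆*:WT ratios of 0.20, −0.22, −0.03 and 0.19, and at 4 h it was called higher on the deposited scale and lower after centring (−0.23). Of the 4 SUN genes, 0, 3, 3 and 3 were thus called lower in *lsm1∆* at 0, 1, 2 and 4 h and 1, 0, 0 and 1 higher, with medians of 0.06, −0.47, −0.69 and −0.72. The shares of all genes were 6.32%, 13.8%, 7.75% and 6.29% lower and 22.2%, 23.2%, 32% and 49.8% higher. After centring all 4 were called lower at 4 h, where 23.5% of all genes were.

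*SUN4* moved with genes of daughter cell separation. Over the 16 libraries, which share the same 8 conditions, the genes most like it were *AMN1* (Pearson's r = 0.98), an antagonist of mitotic exit, and *SCW11* (r = 0.96), a daughter-specific wall protein related to glucanases. All 10 genes of a daughter cell separation list were called lower in WT at 1 h and 9 at both 2 and 4 h, with medians of −0.86, −2.89 and −2.94. In *lsm1∆* the counts were 10, 10 and 9, and the medians were −0.88, −2.89 and −2.84, where 9.4%, 10.1% and 14.7% of all genes were called lower. *DSE1* and *DSE2*, which encode daughter-specific proteins, had log2 changes of −3.79 and −3.76 in WT at 4 h. Between strains at 4 h the median ratio of the list was −0.07, with 1 of the 10 called lower, beside −0.61 for *SUN4*. After centring it was −0.49, with 8 called lower, beside −1.04 for *SUN4*. The shares of all genes called lower between strains at 4 h were 6.29% on the deposited scale and 23.5% after centring. In bulk cultures fewer cells at a cell cycle stage and less mRNA per cell cannot be told apart. HU halts cells early in S phase, and lists of other stages held calls too. Of 12 G1/S genes, 9, 8 and 6 were called higher and 1, 3 and 3 lower in WT at 1, 2 and 4 h. Of 12 M/G1 genes, 1, 2 and 2 were called higher and 5, 3 and 4 lower. The shares of all genes in WT were 36%, 31.1% and 22% higher and 8.36%, 11.9% and 26% lower. Of 12 G2/M genes, 5, 2 and 1 were called lower in WT and 10, 4 and 2 in *lsm1∆*, and after centring 9, 5 and 1 in WT and 11, 5 and 3 in *lsm1∆*. Those called higher were 1, 3 and 2 in WT and 0, 0 and 4 in *lsm1∆*. After centring they were 1, 2 and 3 in WT and 0, 0 and 1 in *lsm1∆*. The shares of all genes in *lsm1∆* were 25%, 38.6% and 43.6% higher and 9.4%, 10.1% and 14.7% lower. Centred shares were 14.6%, 18.3% and 23.9% higher and 17.6%, 20.5% and 24.7% lower in WT. In *lsm1∆* they were 13.9%, 18.9% and 23.1% higher and 15.5%, 20.9% and 27.5% lower. The median change of the G2/M genes was −0.33, 0.22 and 0.19 in WT and −0.70, 0.01 and 0.19 in *lsm1∆*. The strains differed in the change at 1 h for 1 of the 12 G2/M genes, *CLB1* (−0.82, limma adjusted p = 0.0368), and its call was lost after centring (limma adjusted p = 0.0603). By flow cytometry, on cultures diluted from saturation into HU, the study found a similar arrest in both strains. The part of cell cycle stage in the changes of *SUN4* and *PIR1* was not tested.

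The promoters of 3 members with called differences between the strains are shown from 250 bases before to 49 after the first base of the start codon, in the direction of the gene, from the RefSeq R64 genome (the build of the tables). Capitals mark matches to 1 of 6 motifs searched on both strands:
SUN4 (chrXIV:501265-501564, plus strand): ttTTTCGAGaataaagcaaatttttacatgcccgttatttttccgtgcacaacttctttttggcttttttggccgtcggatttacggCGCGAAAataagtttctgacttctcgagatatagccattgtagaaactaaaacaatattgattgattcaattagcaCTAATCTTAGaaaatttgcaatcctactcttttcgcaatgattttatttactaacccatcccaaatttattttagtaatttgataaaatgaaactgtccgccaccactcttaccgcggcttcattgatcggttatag
PIR1 (chrXI:142770-143069, minus strand): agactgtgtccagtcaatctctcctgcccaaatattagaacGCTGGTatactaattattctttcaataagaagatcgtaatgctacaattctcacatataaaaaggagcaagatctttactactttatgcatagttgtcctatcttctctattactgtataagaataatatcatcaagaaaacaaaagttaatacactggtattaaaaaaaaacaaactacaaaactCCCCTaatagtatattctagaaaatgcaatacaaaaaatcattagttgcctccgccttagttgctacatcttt
HSP150 (chrX:120199-120498, plus strand): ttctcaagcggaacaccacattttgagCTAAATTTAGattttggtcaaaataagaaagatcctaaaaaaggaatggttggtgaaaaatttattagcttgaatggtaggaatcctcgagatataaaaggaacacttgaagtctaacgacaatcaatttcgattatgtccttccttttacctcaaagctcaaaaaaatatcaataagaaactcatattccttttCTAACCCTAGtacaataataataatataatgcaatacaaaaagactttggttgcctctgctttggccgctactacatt

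In *SUN4* the Swi4 motif CNCGAAA began 248 and 163 bases before the start codon and the Rlm1 motif, CTA and TAG with 4 bases between them, 87 bases before it. Rlm1 is the transcription factor of the cell wall integrity pathway, and Swi4 acts at G1/S. *HSP150* had the Rlm1 motif at 223 and 28 bases. *PIR1* had the Swi5 motif ACCAGC, read on the other strand, at 209 bases, and AGGGG, the stress response element, on the other strand at 23 bases. *SED1* also had AGGGG, 188 bases before its start. The matches printed do not overlap each other. Of 6001 promoter windows of this length, 13.8% held CNCGAAA, 5.57% the Rlm1 motif, 8.12% ACCAGC and 21.6% AGGGG. The Mcm1 motif, CC and GG with 6 bases between them (29.2% of windows), and ACGCGT, known as MCB (3.07%), had no match in the windows of the 10 members. These are matches of letters only. Bases further upstream were not searched, nor was a motif of Yox1, a repressor that acts with Mcm1. The study lists *UTH1* among its Yox1 targets, genes lowered in HU by *YOX1* overexpression and in *lsm1∆*.

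Among the GPI mannoproteins, *CCW12* (YLR110C, XII, 369697–370098, minus strand) encodes a small and very abundant mannoprotein needed for a normal wall. WT libraries had 18326 and 18506 FPKM untreated, 14289 and 16248 at 1 h, 14977 and 15325 at 2 h, and 16595 and 16557 at 4 h. The *lsm1∆* libraries had 25082 and 26021, 21383 and 21918, 19074 and 20183, and 21208 and 23858 FPKM. The lowest *lsm1∆* library was above the highest WT library of all times, and the *lsm1∆*:WT log2 ratio was 0.47, 0.51, 0.37 and 0.44 with a standard error of 0.07, called at each time (limma adjusted p = 0.00102, 0.000435, 0.00185 and 0.000366). After centring it was 0.38, 0.50, 0.20 and 0.02, of which the last 2 were not called. HU lowered *CCW12* modestly, by −0.27 at 1 h and −0.28 at 2 h in WT and by −0.24, −0.38 and −0.18 at 1, 2 and 4 h in *lsm1∆*. Most of these small falls depended on single libraries. Those at 1 h were lost without untreated WT replicate 2 or WT replicate 1 of 1 h (−0.37 to −0.18), and in *lsm1∆* without any 1 of the 4 libraries compared (−0.27 to −0.21). That at 2 h in WT was lost without WT replicate 1 (−0.27), and that at 4 h in *lsm1∆* in 13 of the 16 fits that left out a library (−0.27 to −0.10).

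*CWP2* (YKL096W-A, XI, 259253–259531, plus strand) and *CWP1* (YKL096W, XI, 261132–261851, plus strand) lie 1600 bp apart in the same direction and encode major GPI wall mannoproteins, Cwp1 being placed at the birth scar. *CWP2* in WT was at 10112 and 11720.0 FPKM untreated, 6956 and 8222 at 1 h, 4648 and 5982 at 2 h, and 3681 and 5915 at 4 h. *CWP2* in *lsm1∆* was at 8793 and 11451, 8797 and 10306, 9055 and 10732, and 7230.1 and 8878 FPKM. *CWP2* thus dropped to 0.44 times its untreated mean in WT at 4 h, and in *lsm1∆* the replicates of every HU time overlapped with those of untreated cells. The change in WT was −1.05 ± 0.23 at 2 h and −1.22 ± 0.23 at 4 h (limma adjusted p = 0.00514 and 0.00168), and in *lsm1∆* it was −0.03 and −0.32, not called. The difference between the strains in this change, 1.02 ± 0.33 at 2 h and 0.90 ± 0.33 at 4 h, was not called (limma adjusted p = 0.152 and 0.0657), but that at 4 h was called without WT replicate 2 of that time (1.24, limma adjusted p = 0.0192). The *lsm1∆*:WT ratio was 0.90 ± 0.23 at 2 h and 0.78 ± 0.23 at 4 h and was called (limma adjusted p = 0.0113 and 0.0162). These calls were lost without WT replicate 1 or *lsm1∆* replicate 2 of the same time (0.72 to 1.08 at 2 h, 0.44 to 1.12 at 4 h), and at 4 h after centring (0.36).

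*CWP1* in WT was at 209 and 179 FPKM untreated, 357 and 361 at 1 h, 241 and 341 at 2 h, and 122 and 169 at 4 h. *CWP1* in *lsm1∆* was at 275 and 249, 789.9 and 626, 488 and 669, and 157 and 252 FPKM. Both strains had their highest mean at 1 h and their lowest at 4 h, and *lsm1∆* was above WT without overlap until 2 h. In *lsm1∆* the replicates of 1 h overlapped those of 2 h, and those of 4 h overlapped the untreated ones. The change from untreated at 4 h was −0.43 in WT and −0.40 in *lsm1∆*, neither called (limma adjusted p = 0.204 and 0.224). The change at 1 h was 0.89 ± 0.26 in WT and 1.42 ± 0.26 in *lsm1∆* (limma adjusted p = 0.0196 and 0.0023), and at 2 h that of *lsm1∆* was 1.12 ± 0.26 (limma adjusted p = 0.00534). The *lsm1∆*:WT ratio was 0.44 untreated, 0.97 at 1 h, 0.99 at 2 h and 0.47 at 4 h, called at 1 and 2 h (limma adjusted p = 0.0163 and 0.0126). The ratio at 1 h was not called without either WT replicate or *lsm1∆* replicate 1 (0.80 to 1.13), and that at 2 h without WT replicate 1 or *lsm1∆* replicate 2 (0.74 to 1.24). The rise in WT at 1 h was lost without untreated replicate 2 or either replicate of 1 h (0.78 to 1.00) and after centring (0.65). At 1 h in WT its neighbour *CWP2* had a log2 change of −0.53, which was not called (limma adjusted p = 0.0938).

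*SED1* (YDR077W, IV, 600793–601809, plus strand) encodes the main wall glycoprotein of stationary-phase cells. WT had 984 and 816 FPKM untreated, 1359 and 1312 at 1 h, 1749 and 1793 at 2 h, and 1999 and 2083 at 4 h. In *lsm1∆* it was at 979 in both untreated libraries, 1245 and 965 at 1 h, 1595 and 1600.0 at 2 h, and 1886 and 1686 at 4 h. In WT the replicates of successive times did not overlap, each time being higher than the one before. *SED1* had changes from untreated cells of 0.57, 0.98 and 1.19 in WT (limma adjusted p = 0.00322, 0.000114 and 2.2e-05) and of 0.16, 0.71 and 0.86 in *lsm1∆*, the last 2 called (limma adjusted p = 0.000723 and 0.000141). Leaving out each library kept these calls, and centring lost the one at 1 h in WT (0.33). Both *lsm1∆* libraries lay below both WT libraries at 1, 2 and 4 h, with log2 ratios of −0.28, −0.15 and −0.19, none called on the deposited scale. That at 1 h was −0.47 and called without *lsm1∆* replicate 1 (limma adjusted p = 0.0135) and −0.10 without replicate 2. After centring the ratio at 4 h was −0.62 (limma adjusted p = 0.00171) and that of the difference in change −0.66 (limma adjusted p = 0.0273). *TIR1* (YER011W, V, 175248–176012, plus strand), known for induction by cold and by lack of oxygen, was at 80.3 and 48.3 FPKM in untreated WT, 86.4 and 71.9 at 1 h, 227 and 171 at 2 h, and 143 and 108 at 4 h. In *lsm1∆* it was at 157 and 91.9, 230.3 and 92.3, 411 and 182, and 243 and 128 FPKM. *TIR1* was highest at 2 h in both strains, and its replicates were far apart. Of the 13 comparisons, only its change in WT at 2 h was called (1.65 ± 0.53, limma adjusted p = 0.0294). That call was lost without untreated WT replicate 2 or either replicate of 2 h (1.29 to 2.01). The *lsm1∆*:WT log2 ratio of *TIR1* was 0.94, 0.88, 0.47 and 0.50 at 0, 1, 2 and 4 h, none called. Both *lsm1∆* libraries lay above both WT libraries at 0 and 1 h. With a block for replicate number these 2 ratios were called (limma adjusted p = 0.0177 and 0.0185).

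Replicates were not equally close for all genes. *TIR1* was higher in replicate 1 than in replicate 2 in 8 of 8 conditions, by 1.20 to 2.50 times. *CWP2* was higher in replicate 2 in 8 of 8, by 1.16 to 1.61 times. *UTH1* was also higher there in 8 of 8, by 1.00 to 1.36 times, but in *lsm1∆* at 4 h only nominally (1059.92 and 1059.96 FPKM). For the other 7 members neither replicate was higher in all conditions. Whether the replicate numbers stand for a shared preparation is not given in the sources used here.

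**Figure D4:**
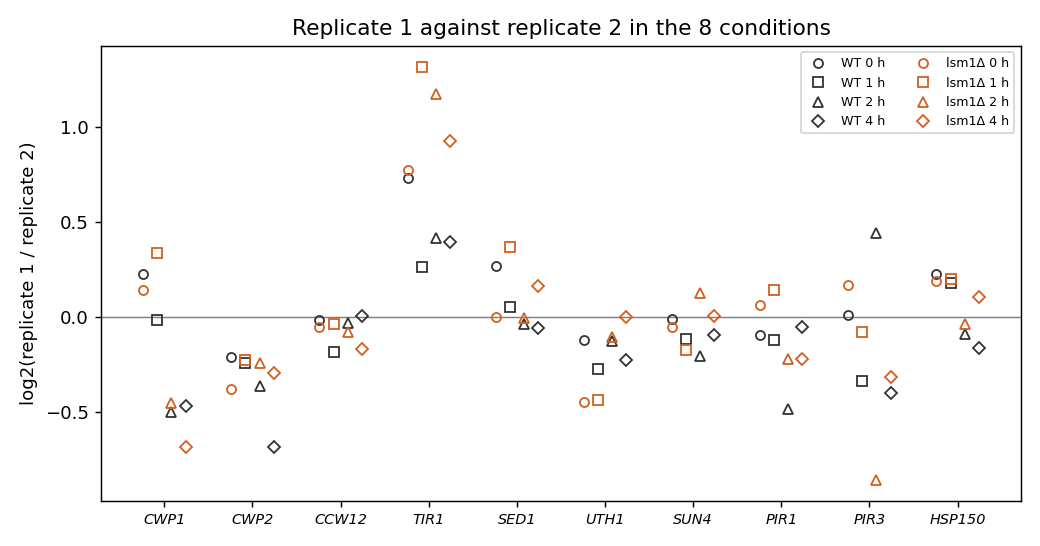
Log2 ratio of replicate 1 to replicate 2 for each gene in the 8 conditions, WT dark and *lsm1∆* orange, with a symbol for each time. All points of *TIR1* lie above 0 (ratios of 1.20 to 2.50) and all points of *CWP2* below it (replicate 2 higher by 1.16 to 1.61 times).

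Other wall genes gave the setting. Of 27 further GPI and PIR wall proteins, 10, 8, 9 and 12 were called higher in *lsm1∆* at 0, 1, 2 and 4 h and 0, 1, 1 and 2 lower, with medians of 0.33, 0.21, 0.28 and 0.39. The shares of all genes were 22.2%, 23.2%, 32% and 49.8% higher and 6.32%, 13.8%, 7.75% and 6.29% lower. After centring the counts at 4 h were 2 higher and 5 lower (21.9% and 23.5% of all genes). In WT at 4 h, 9 were higher and 5 lower than untreated (22% and 26% of all genes). *YGP1*, a secreted glycoprotein of nutrient limitation, rose from a mean of 77.5 to 960.1 FPKM in WT and from 66.4 to 323 FPKM in *lsm1∆*, and the difference in its change at 4 h was called (−1.32 ± 0.27, limma adjusted p = 0.00569). *FIT2*, a mannoprotein of iron uptake, rose from 147 to 1284 FPKM in WT. *PST1* fell from 80.8 to 22.3 FPKM and *PLB2* from 49.6 to 19.5 FPKM. In *lsm1∆* against WT at 4 h, *AGA2*, a subunit of **a**-agglutinin, was higher (1.13) and so was *DAN1* (1.48), whereas *PRY3* was lower (−0.28) beside *YGP1* (−1.56).

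*PST1* was also the gene most like *PIR3* over the 16 libraries (r = 0.97), followed by YLR076C (r = 0.92), and those most like *PIR1* were *HTA2* and *RPL10* (both r = 0.98), a histone and a ribosomal protein gene. For *SED1* they were *ROM1* (r = 0.94), an exchange factor of the cell wall integrity pathway, and *AIM3* (r = 0.94). *FLR1* and *MYO1* were most like *UTH1* (r = 0.91 and 0.89), *CYB5* and *SEC62* most like *CWP1* (r = 0.93 and 0.91), and *HHF2* and YLR460C most like *CCW12* (r = 0.92 and 0.91). The genes most like *TIR1* were YHL046W-A and *ARN2* (r = 0.91 and 0.89), those most like *CWP2* were *SER2* and YER119C-A (r = 0.90 and 0.89), and those most like *HSP150* were YLR112W and *KIN3* (r = 0.86 and 0.82). The search covered 6095 genes with a mean of at least 10 FPKM, and each r describes 16 libraries of the same 8 conditions.

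Of 19 genes of cell wall integrity signalling, 0, 1, 2 and 6 were called higher in *lsm1∆* at 0, 1, 2 and 4 h and 5, 7, 5 and 4 lower. Of all genes, 22.2%, 23.2%, 32% and 49.8% were called higher and 6.32%, 13.8%, 7.75% and 6.29% lower. After centring the counts of the 19 were 0, 1, 0 and 1 higher and 5, 7, 6 and 8 lower, so the balance at 4 h turned over. The centred shares of all genes were 16.3%, 23.2%, 20.6% and 21.9% higher and 9.42%, 13.9%, 15.8% and 23.5% lower. *ROM1* rose in WT from 7.74 to 29.6 FPKM by 4 h and reached 19.3 FPKM in *lsm1∆* (ratio of −0.59, limma adjusted p = 0.0487). *WSC3* was lower in *lsm1∆* (−0.97), and *WSC1*, a wall stress sensor, was higher (0.76). Of 26 genes of glucan and chitin synthesis and remodelling, 12, 7, 13 and 14 were called higher in *lsm1∆* and 2, 3, 3 and 4 lower. The 14 of 26 at 4 h stand beside the 49.8% of all genes called higher, and after centring the counts were 9, 7, 8 and 6 higher and 2, 3, 5 and 6 lower. *GSC2*, the inducible subunit of glucan synthase, rose from 16.5 to 122 FPKM in WT at 4 h, and *UTR2*, a transglycosylase that links chitin to glucan, fell from 329.8 to 114 FPKM. *UTR2* was higher in *lsm1∆* at 4 h (1.67), as was its relative *CRH1*, at 338 FPKM against 119. Of 24 genes of protein mannosylation, which builds the sugar coat of these proteins, 2 were called higher and 11 lower in WT at 4 h (22% and 26% of all genes). *PSA1*, which makes GDP-mannose, was at 1657 FPKM untreated and 610.4 FPKM at 4 h. In *lsm1∆* against WT at 4 h, 18 of the 24 were higher and 0 lower on the deposited scale (49.8% and 6.29% of all genes). After centring, 3 were higher and 4 lower (21.9% and 23.5% of all genes).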

How the data were processed

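RNA of 16 libraries was sequenced. The authors removed rRNA, made TruSeq RNA v2 libraries (which keep no strand), aligned 50-base reads to sacCer3 with TopHat2 and estimated abundance with Cufflinks. The deposited values are FPKM with the bounds of Cufflinks' interval. The tables hold no read totals, so depth is known only relative to the other libraries. The 46 genes with a failed estimate were left out, and 6977 genes that reached 1 FPKM in 2 or more libraries were tested.

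Here, log2(FPKM + 1) was fitted with limma 3.58.1 (R 4.3.3; trend, 1.85 prior degrees of freedom) in 1 fit with 8 condition means. Folds of low genes are understated on this scale. P-values were adjusted by Benjamini–Hochberg within each of 13 comparisons: *lsm1∆* against WT at 4 times, 3 HU times against untreated in each strain, and the strain difference in those changes. The alternatives were centring, a pseudocount of 0.1, no filter, a mean of 5 FPKM demanded of every condition, separate fits of the libraries of each comparison, a block for replicate number, a threshold of 0.01 and each library left out. An even division of reads shared by *PIR1* and *PIR3* was added after seeing the data. In the alternatives that leave out a library, the lone library of a condition is taken to vary like the others.

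The members and lists were chosen with earlier results of these data known. The text names all 10 members, up to 2 list genes with the highest and 2 with the lowest log2 ratio among called genes without overlap in WT at 4 h against untreated and in *lsm1∆* against WT at 4 h, list genes beside a member, the other SUN genes, and the 2 genes most like each member. *CLB1*, and strain differences of list genes, were added after they were seen. All 10 positions match RefSeq R64. Protein sequences were not used here. The code was tested on simulated data, and Python 3.11.15 with pandas 2.3.3 and numpy 2.4.6 was used for other steps.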

Additional observations from a re-analysis of the deposited data

Results flagged for a closer look

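The change in HU differed between the strains in 4 instances, each by the interaction term of limma with Benjamini–Hochberg adjustment. *PIR1* fell less in *lsm1∆* at 1 h (2.28 on the log2 scale, adjusted p = 0.00424), with both *lsm1∆* replicates above both WT replicates at that time. *SUN4* fell further in *lsm1∆* at 2 h (−0.60, adjusted p = 0.0481) and at 4 h (−0.61, adjusted p = 0.00539). *HSP150* rose in WT and fell in *lsm1∆* at 4 h (difference of −0.99, adjusted p = 0.00188). No group has more than 2 libraries, so single libraries were not examined as outliers.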

How the results depend on the processing

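No alternative reversed a called ratio, apart from *PIR3* in *lsm1∆* at 4 h of HU, which was 0.43 when reads shared with *PIR1* were divided evenly. The same division gave 0.19 and 0.54 for the strain difference of *PIR3* at 2 and 4 h. A pseudocount of 0.1 gave 0.042 for the latter. Centring turned *UTH1* in *lsm1∆* at 2 h to −0.045 and the strain differences of *TIR1* and *SUN4* at 1 h and *CWP1* at 4 h to 0.029, 0.015 and −0.30, all uncalled. With each fit restricted to the libraries compared, 2 members were called between strains at 1 h against 6. The call of *SUN4* in the strain difference at 2 h was the only one there, and 0 remained after centring, in the restricted fit or at a threshold of 0.01. The filter of 5 FPKM dropped *PIR3* and changed no other call. Over all genes, deviations of same-numbered libraries correlated above 0.1 in 8 of 28 pairs of conditions (−0.21 to 0.23). For WT and *lsm1∆* of the same time, r was 0.23 untreated, 0.05 at 1 h, 0.19 at 2 h and −0.05 at 4 h. The numbers were not taken to pair the libraries. Still, *TIR1* and *CWP2* shifted with the number in all conditions, and *UTH1* in all but *lsm1∆* at 4 h, where its replicates were nearly equal. With the replicate block 13 more ratios were called, giving 4 members between strains untreated and 2 in the strain difference at 2 h, and no call was lost. The strain difference of *CWP2* was among those gained (adjusted p = 0.0188 at 2 h and 0.00257 at 4 h), as were 4 ratios of *TIR1*, whose standard error was 0.53 without and 0.24 with the block.

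With each library left out in turn, the count of members called was 3 to 6 between strains at 1 h (3 without WT replicate 2 of 1 h), 4 to 7 in *lsm1∆* at 4 h (4 without untreated *lsm1∆* replicate 1) and 0 to 1 for the strain difference at 2 h. The ratios that changed sign were all uncalled with every library in. Between strains these were untreated *CWP2* (−0.31 to 0.073), *SED1* (−0.0078 to 0.26), *SUN4* (−0.028 to 0.024) and *HSP150* (−0.0055 to 0.22), *SUN4* at 1 h (−0.16 to 0.014) and *TIR1* at 2 h (−0.11 to 1.06). In WT they were *TIR1* (−0.027 to 0.695) and *UTH1* (−0.24 to 0.039) at 1 h. In *lsm1∆* they were *CWP2* (−0.27 to 0.115), *TIR1* (−0.38 to 0.93) and *SED1* (−0.020 to 0.35) at 1 h and *CWP2* (−0.22 to 0.165) and *UTH1* (−0.0020 to 0.45) at 2 h. Among strain differences they were *CCW12* (−0.058 to 0.13), *TIR1* (−0.71 to 0.60) and *SUN4* (−0.16 to 0.016) at 1 h, *TIR1* (−1.05 to 0.12), *PIR1* (−0.25 to 0.22) and *PIR3* (−0.56 to 0.18) at 2 h, and *CWP1* (−0.31 to 0.37), *CCW12* (−0.12 to 0.053), *TIR1* (−0.89 to 0.026) and *PIR3* (−0.18 to 0.175) at 4 h. The causes were not tested.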
